A study of Mus musculus with 48 samples.

Results

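The genes that encode the peptide hormones of the pancreatic islet were followed over fetal, newborn and adult cells of the mouse pancreas. The list held 8 genes: Ins1 and Ins2 for the insulins, Gcg for glucagon, Sst for somatostatin, Ppy for pancreatic polypeptide, Pyy for peptide YY, Ghrl for ghrelin and Iapp for islet amyloid polypeptide. A gene was measured by a probe that the array's annotation pairs with that gene alone, and by the brightest such probe where there were several. This gave 7 measured genes of the 8, out of 18193 genes with such a probe. Expression of Ins1 was not analysed here. The probes were 1422446_x_at for Ins2, 1425952_a_at for Gcg, 1417954_at for Sst, 1420440_at for Ppy, 1424865_at for Pyy, 1448980_at for Ghrl and 1423509_a_at for Iapp, the brightest of 4 Iapp probes. The suffix of the Ins2 probe marks a set that can share sequence with other transcripts, so its signal may hold more than Ins2.

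Islet hormones are made as larger precursors, cut by prohormone convertases and stored in dense core granules until a stimulus such as glucose releases them. Beta cells secrete insulin together with islet amyloid polypeptide, alpha cells glucagon, delta cells somatostatin and PP cells pancreatic polypeptide, while ghrelin marks a cell type found mainly in the fetal islet and peptide YY appears in the earliest endocrine cells. All of them descend from endocrine progenitors that transiently express the transcription factor Neurog3, and without Neurog3 the pancreas forms no islet cells.

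The series holds 48 Affymetrix arrays of sorted CD-1 mouse pancreas cells in 13 populations of 3 to 5 arrays each, and animals were pooled for each array. E11.5 Sox9 cells (n = 4) came from the dorsal pancreas and carried an eGFP reporter under Sox9 control. This reporter outlasts Sox9 itself, so some sorted cells are descendants, though the study describes their share as low. E15.5 Progenitor (n = 3), E15.5 Acinar (n = 3) and E15.5 Endocrine Progenitor cells (n = 3) came from mice with a Neurog3-eGFP transgene and were separated by surface proteins, with the endocrine progenitor gate meant to leave out GFP-bearing cells that already made hormone. E15.5 Neurog3-null cells (n = 4) were sorted for GFP from embryos with eGFP in place of both Neurog3 copies, and their titles give the stage as E1.5 where the stage field reads E15.5. Beta cells were taken at E15.5 (n = 4), E17.5 (n = 3), P0 (n = 3), P15 (n = 4) and 8-12wk (n = 4) from mice in which the mouse insulin promoter drives GFP. Alpha cells were taken at P0 (n = 4) and 8-12wk (n = 5) from mice with a Venus reporter for glucagon, and 8-12wk Duct cells (n = 4) by the surface protein CD133. Apart from the Neurog3-null embryos the genotype is labelled wild type, though reporters were carried. The newborn stage labelled P0 is named P1 in the study's text.

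Values are log2 signals after robust multi-array averaging, a scale on which 1 unit is a 2-fold change of signal. The brightest probe of each array lay between 14.56 and 15.10, and hormone signals often came close to it. Within 1 unit of that limit lay 34 of 48 arrays for Pyy, 26 for Gcg, 26 for Iapp, 25 for Ins2, 10 for Sst, 9 for Ppy and 3 for Ghrl. Differences between bright populations are therefore bounded by the scale and can be smaller than those of the RNA. At the other end, arrays at or below a linear signal of 100, taken as background, numbered 10 for Ppy, 7 for Gcg, 5 for Ins2 and 2 for Sst. Ghrl was above 100 on every array, but its lowest population means lay close together. They were 7.24 in 8-12wk beta, 7.25 in 8-12wk Duct, 7.31 in E15.5 Acinar and 7.49 in E15.5 Neurog3-null cells. Whether they mark the floor of this probe was not tested. Differences between a bright and a dim population are therefore limited at both ends, and their sizes do not rank the genes. In sorted bulk samples, fewer cells of a type and less RNA per cell cannot be told apart. The alpha and beta labels were checked with markers other than hormones: in adult cells 7 of 8 beta cell markers were lower in alpha than in beta cells, with Nkx6-1 at -3.96 and Pdx1 at -3.54, and 5 of 8 alpha cell markers were higher, with Irx2 at 3.46. Gcgr, the glucagon receptor, was on the alpha cell list and was the 1 marker lower in adult alpha cells. At P0, 4 of 8 beta cell markers were lower and 3 of 8 alpha cell markers higher in alpha cells. Population means of the alpha cell list were 11.62 in E15.5, 11.07 in E17.5 and 10.32 in P0 beta cells. They were 11.25 in P0 and 10.62 in 8-12wk alpha cells. The beta cell list gave 10.79, 11.00 and 11.28 in those beta cells and 10.06 and 8.82 in those alpha cells. The alpha cell list thus did not set E15.5 and E17.5 beta cells apart from alpha cells. Neurog3 read 10.29 to 10.97 in the Neurog3-null arrays against 13.34 to 13.44 in E15.5 endocrine progenitors. Where this probe lies relative to the replaced sequence is not given in the sources used here, so its signal does not check the label.

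The bases just before the start sites were examined because most of these genes were high or low in the same populations. RefSeq start sites on GRCm38.p6 were at hand for 7 of the 8 genes, and that of Ins2 was not used here. In the 250 bases before each start, TAAT or its complement ATTA, the core bound by homeodomain factors such as Pdx1, stood before 4 of 7 genes (Ins1, Gcg, Sst and Iapp) and in 54.9% of all 32851 such windows. CATCTG or CAGATG, the E box form bound by Neurod1 with its partners, stood before 3 of 7 (Ins1, Gcg and Iapp) and in 14.4% of all windows. The palindrome TGACGTCA, the cyclic AMP response element, stood before Sst alone and in 1.55% of all windows. TATAAA or TTTATA stood before Gcg and Ppy and in 12.4% of all windows. None of these letters was in the windows of the 2 Pyy or 4 Ghrl start sites, which says only that the letters are not there. Windows of 3 genes are shown 5′ to 3′ on the gene's own strand, with matches to the 4 motifs in capitals: Gcg and Iapp, which held the most matches, and Sst, which held the cyclic AMP response element. The Gcg window is chr2:62483654-62483903 (minus strand), that of Iapp chr6:142298175-142298424 (plus strand) and that of Sst chr16:23890845-23891094 (minus strand). In Iapp 1 TAAT and 1 ATTA overlap as ATTAAT.
Gcg: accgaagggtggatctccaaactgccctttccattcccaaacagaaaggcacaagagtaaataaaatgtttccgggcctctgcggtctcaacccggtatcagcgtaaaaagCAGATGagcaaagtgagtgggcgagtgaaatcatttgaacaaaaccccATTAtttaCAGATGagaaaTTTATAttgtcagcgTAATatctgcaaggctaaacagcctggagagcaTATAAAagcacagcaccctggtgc
Iapp: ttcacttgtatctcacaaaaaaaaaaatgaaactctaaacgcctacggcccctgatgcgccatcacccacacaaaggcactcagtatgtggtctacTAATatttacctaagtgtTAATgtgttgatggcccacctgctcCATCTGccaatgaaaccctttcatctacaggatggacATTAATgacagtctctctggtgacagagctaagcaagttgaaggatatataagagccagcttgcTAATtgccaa
Sst: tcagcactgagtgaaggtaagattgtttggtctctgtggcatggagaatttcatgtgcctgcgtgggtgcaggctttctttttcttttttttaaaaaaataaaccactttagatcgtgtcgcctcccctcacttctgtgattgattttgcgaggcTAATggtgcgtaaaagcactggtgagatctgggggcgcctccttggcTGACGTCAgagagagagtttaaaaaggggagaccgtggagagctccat

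Hormone genes were bright in the endocrine populations, except Sst in E15.5 endocrine progenitors and Ghrl in P15 and adult cells, and for most genes dim in E15.5 progenitor, E15.5 acinar and E15.5 Neurog3-null cells. Population means spanned 9.26 units for Gcg, 8.64 for Ppy, 8.17 for Ins2, 7.48 for Sst, 7.37 for Iapp, 7.16 for Pyy and 6.65 for Ghrl. Ins2, the ancestral one of the mouse insulin genes, was highest in 8-12wk beta cells (14.65 ± 0.04, SD, n = 4) and lowest in E15.5 Neurog3-null cells (6.48 ± 0.18, SD, n = 4). From its highest to its 6th population, all of them beta cells or P0 alpha cells, the arrays of each pair of neighbours overlapped. Gcg was highest in 8-12wk alpha cells (14.48 ± 0.03, SD, n = 5), which overlapped no other population, and lowest in 8-12wk Duct cells (5.22 ± 0.55, SD, n = 4). Since insulin and glucagon reporters chose the beta and alpha cells, their high Ins2 and Gcg restate the sort.

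**Figure D1:**
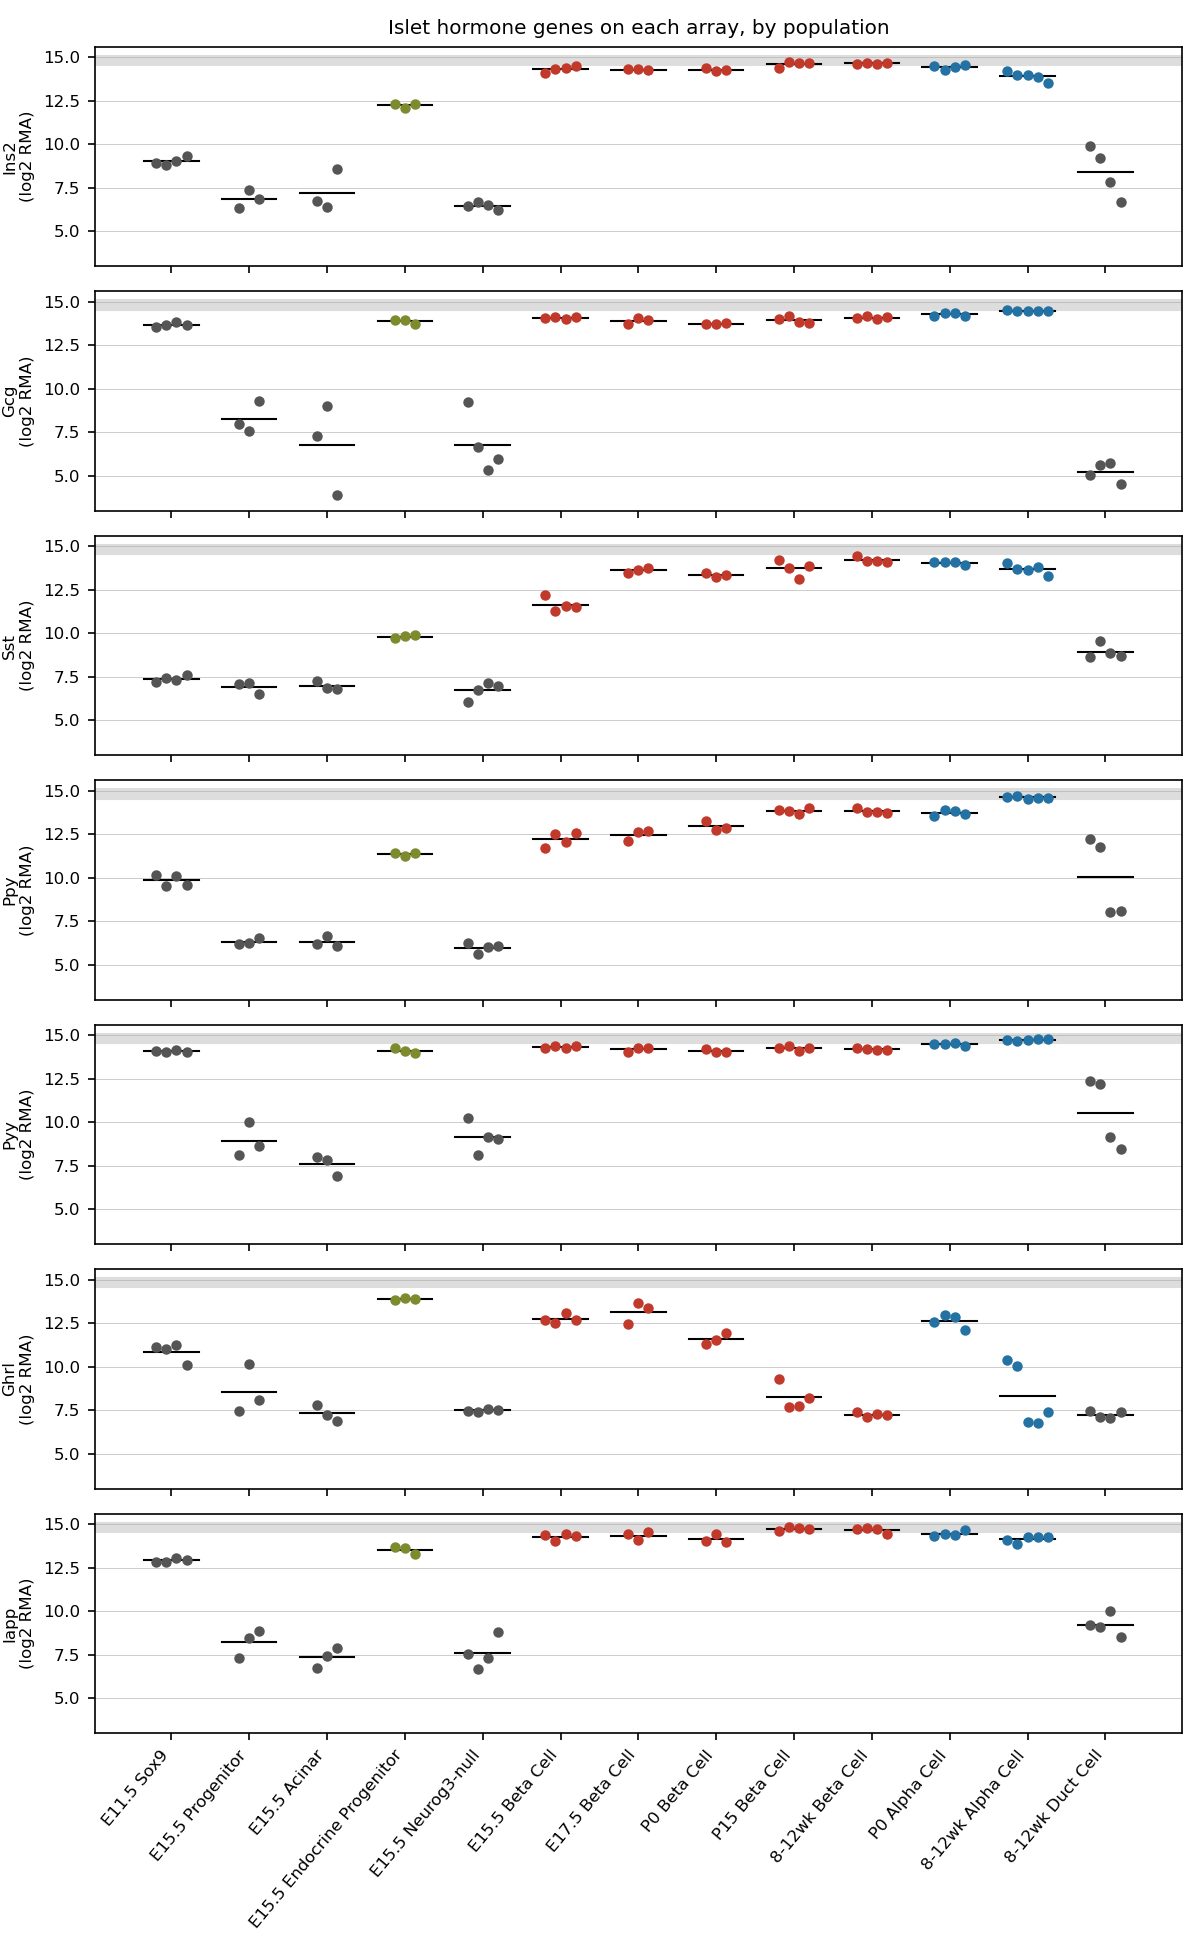
Each point is 1 array and each black line a population mean, on the log2 RMA scale, for the 7 measured hormone genes over the 13 populations (beta cells red, alpha cells blue, E15.5 endocrine progenitors green, others grey). The grey band covers the brightest probe of each array, 14.56 to 15.10. Ghrl was low in 8-12wk beta cells, where the other 6 genes read 13.74 or higher.

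The remaining genes had other leading populations. Iapp was highest in P15 beta cells (14.73 ± 0.11, SD, n = 4), and its arrays overlapped those of 8-12wk beta cells (14.67 ± 0.15, SD, n = 4). Sst, which inhibits insulin and glucagon release, was highest in 8-12wk beta cells (14.22 ± 0.15, SD, n = 4), overlapping P0 alpha cells (14.07 ± 0.09, SD, n = 4). Ppy and Pyy, related peptides of the neuropeptide Y family, were both highest in 8-12wk alpha cells, at 14.62 ± 0.06 and 14.74 ± 0.05 (SD, n = 5 each), and overlapped no other population there. Ghrl alone was highest in E15.5 endocrine progenitors (13.90 ± 0.04, SD, n = 3), again without overlap.

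The first comparison set E15.5 progenitors against E11.5 Sox9 cells. Besides stage, these populations differ in reporter line and gate, and the E11.5 cells came from the dorsal pancreas. These differences cannot be told apart here. E11.5 Sox9 cells already had strong hormone signal: Pyy read 14.12, 14.06, 14.16 and 14.06 on the 4 arrays, Gcg 13.57, 13.65, 13.84 and 13.68, and Iapp 12.84, 12.83, 13.08 and 12.92. E15.5 progenitors read 8.11, 10.01 and 8.63 for Pyy, 7.99, 7.56 and 9.30 for Gcg and 7.34, 8.46 and 8.83 for Iapp, so no array of either population overlapped the other for these 3 genes. A gene was called where limma's Benjamini-Hochberg adjusted p was under 0.05 and the difference was at least 2-fold, in a fit of all 48 arrays and 32043 probes. By this rule 6 of 7 hormone genes were lower at E15.5 and 0 higher, against 6.37% of all probes lower and 4.96% higher. Over the 7 genes the median difference was -3.52, and over all probes -0.04.

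Gcg was lower by 5.40 (SE 0.62, limma adjusted p = 6.38e-09) and Pyy by 5.18 (SE 0.52, limma adjusted p = 2.01e-10). Iapp was lower by 4.71, Ppy by 3.52, Ghrl by 2.31 and Ins2 by 2.17. Ghrl had the widest spread, since E15.5 progenitor replicate 2 read 10.18 against 7.44 and 8.06 for the others and lay within the E11.5 range of 10.12 to 11.23. Without that array the difference was -3.12. Under the methods' t-test, which estimates the spread from these 7 arrays alone, Ghrl had an adjusted p of 0.0668 and was not called. Sst was not called: its means were 6.92 ± 0.35 (SD, n = 3) at E15.5 and 7.39 ± 0.17 (SD, n = 4) at E11.5. Granule and processing genes moved in the same direction, with 15 of 17 lower, among them Chgb, a granule matrix protein (-5.12), and Scg5, a chaperone of prohormone convertase (-4.96). Of 17 islet transcription factors 9 were lower, including Irx2 (-5.75), Pax6 (-5.26) and Isl1 (-4.72), and 1 was higher. Of 8 alpha cell markers other than hormones, 6 were lower and 1 higher at E15.5. Their list means were 7.43 to 7.93 against 10.60 to 10.97 per array, beside 10.51 to 10.87 in adult alpha cells. Acinar markers rose beside these results, 6 of 12 being higher at E15.5, with list means of 10.47 to 12.29 per array against 8.56 to 9.02. The part of alpha-like or acinar cells in the hormone differences was not tested.

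**Figure D2:**
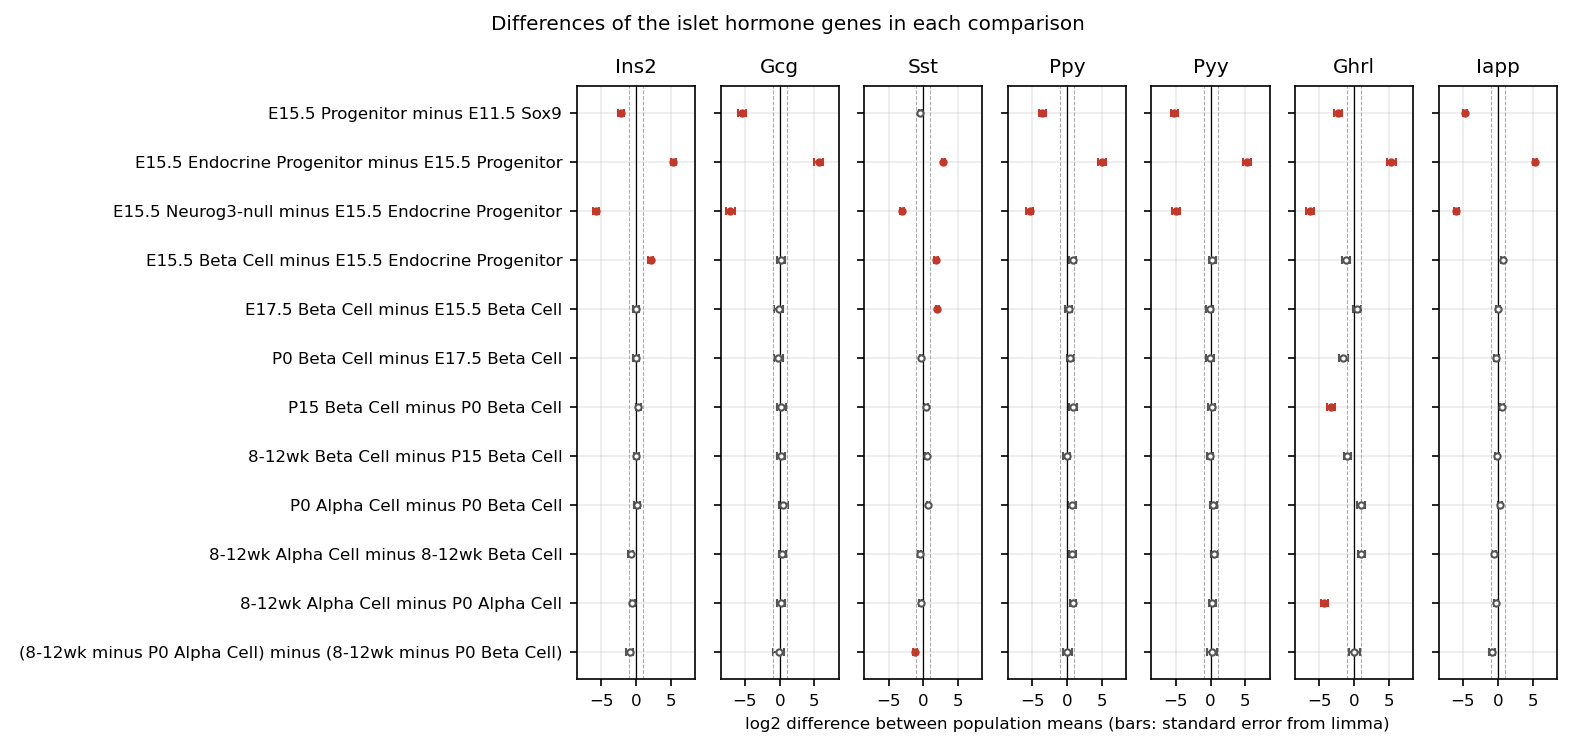
Points are log2 differences between population means for each hormone gene in the 12 comparisons, with bars of 1 standard error from limma and dashed lines at a 2-fold difference. Filled red points passed the adjusted p and the 2-fold minimum, which all 7 genes did in the comparisons of E15.5 endocrine progenitors with E15.5 progenitors and with Neurog3-null cells.

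Among the 12 comparisons the median of the hormone genes rose most from E15.5 progenitors to E15.5 endocrine progenitors, the cells chosen for the Neurog3 reporter. Although the gate was meant to take hormone-negative cells, the 3 endocrine progenitor arrays read 13.93, 13.99 and 13.74 for Gcg, 14.26, 14.12 and 13.96 for Pyy, 13.85, 13.92 and 13.92 for Ghrl and 13.71, 13.62 and 13.29 for Iapp. Ins2 read 12.31, 12.09 and 12.31, Ppy 11.44, 11.23 and 11.40, and Sst 9.71, 9.82 and 9.90. Each value was above every E15.5 progenitor array for the same gene.

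All 7 hormone genes were called higher and 0 lower, against 9.07% of all probes higher and 10.1% lower. The median difference was 5.33, and over all probes -0.00. Gcg rose by 5.60 (SE 0.67, limma adjusted p = 7.57e-09), Ins2 by 5.38 (SE 0.43, limma adjusted p = 3.02e-13) and Ghrl by 5.34 (SE 0.61, limma adjusted p = 3.33e-09). Without E15.5 progenitor replicate 2 the rise of Ghrl was 6.15. Sst rose by 2.89 (SE 0.24, limma adjusted p = 1.46e-12), and 1 of 4 delta cell markers other than hormones was higher.

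The genes that package and activate the hormones rose with them. Of 17 granule and processing genes 16 were higher, led by Mboat4, the acyltransferase that activates ghrelin (5.97), Scg2 (5.89), Chgb (5.69) and Scg3 (5.62). Of 17 islet transcription factors 13 were higher, led by St18 (6.96), Pax6 (6.34), Neurod1 (5.90) and Pou3f4 (5.82). Among 16 other peptide hormone genes 8 were higher, with gastrin (Gast) at 6.47 and cholecystokinin (Cck) at 5.20. Mesenchyme and stellate markers also differed, 7 of 12 being higher, with list means of 8.99 to 9.61 against 7.53 to 8.73 per array, and their part was not tested.

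Loss of Neurog3 was compared with the wild type endocrine progenitors at the same stage. In the 4 Neurog3-null arrays Ghrl read 7.48, 7.38, 7.58 and 7.51, Ins2 6.48, 6.67, 6.54 and 6.25, and Ppy 6.24, 5.59, 6.01 and 6.09. These 3 genes varied little, whereas Gcg read 9.24, 6.64, 5.31 and 5.97 and Pyy 10.26, 8.13, 9.15 and 9.01, with replicate 1 the highest for both. All 7 genes were called lower and 0 higher, against 16.4% of all probes lower and 14.7% higher.

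Gcg fell by 7.09 (SE 0.62, limma adjusted p = 2.37e-12), with a difference of -7.91 without null replicate 1 and with 2 of the 4 null arrays above a signal of 100. Ghrl fell by 6.41 (SE 0.57, limma adjusted p = 3.62e-12). The differences of the other called genes were -5.95 for Iapp, -5.75 for Ins2, -5.38 for Ppy, -4.97 for Pyy and -3.07 for Sst. Of the 4 null arrays 0 were above 100 for Ppy and 1 for Ins2, so most of those readings lie at background. The median difference was -5.75, and over all probes -0.01. Of 17 islet transcription factors 15 were lower, with Neurod1 at -8.20 and Isl1 at -7.86, and of 17 granule genes 15 were lower, with Chgb at -5.93. The null and wild type cells came from different reporter lines, a knock-in and a transgene. All 17 macrophage and leukocyte markers and 9 of 12 acinar markers were higher in the null arrays, with macrophage list means, over 18 measured markers, of 10.93 to 11.65 against 5.92 to 6.13 per array. Their part in the hormone differences was not tested.

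From E15.5 endocrine progenitors to E15.5 beta cells, 2 of 7 hormone genes were called higher and 0 lower, against 5.63% of all probes higher and 3.81% lower. Ins2 read 14.11, 14.33, 14.37 and 14.49 in the beta cells and rose by 2.09 (SE 0.40, limma adjusted p = 0.000129), for a gene whose promoter chose the cells. Sst read 12.18, 11.26, 11.57 and 11.51 and rose by 1.82 (SE 0.23, limma adjusted p = 7.45e-08), with every beta cell array above the 3 endocrine progenitor arrays. Of 4 delta cell markers 0 were called here, with list means of 8.41 to 8.69 in beta cells against 8.79 to 8.84 per array. Ghrl read 12.68, 12.53, 13.08 and 12.67, all below the endocrine progenitor arrays, at a difference of -1.16 that was not called in the fit of all arrays (limma adjusted p = 0.154).

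Ghrl was called lower where limma used these 7 arrays alone, and its acyltransferase Mboat4 fell by 2.25 (limma adjusted p = 5.69e-05). The differences of Iapp (0.75), Ppy (0.85), Pyy (0.23) and Gcg (0.20) were not called. For each of these genes every beta cell array lay above the endocrine progenitor arrays. With the spread taken from these 7 arrays alone, limma gave adjusted p of 0.00776 for Iapp and 0.0199 for Ppy, both under 2-fold. Those of Pyy and Gcg were 0.172 and 0.226. For Iapp 1 of its 4 probes, 1423510_at, was called higher at 1.28 (limma adjusted p = 0.0216) and the other 3 were not. In the other 11 comparisons the 4 Iapp probes gave the same call under the adjusted p and the 2-fold minimum together. The median difference over the 7 genes was 0.75, and over all probes 0.01. Of 17 granule genes 11 were higher, including Slc30a8, the zinc transporter of insulin granules (2.46), and Pax4 fell by 2.74 among the transcription factors. Macrophage markers (11 of 17), endothelial markers (9 of 11) and mesenchyme markers (7 of 12) were higher in the beta cells, and their part was not tested.

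Across the beta cell stages Sst and Ghrl were the genes called in at least 1 step, while Ins2, Gcg, Pyy and Iapp stayed between 13.72 and 14.82 on every beta cell array. Ppy means were 12.21 at E15.5, 12.49 at E17.5, 12.98 at P0 and 13.85 at P15, with every P15 array above every E15.5 array, but no single step was called. From E15.5 to E17.5, 1 of 7 genes was called higher and 0 lower, against 7.30% of all probes higher and 2.51% lower. This was Sst, which read 13.48, 13.64 and 13.76 at E17.5 and rose by 2.00 (SE 0.23, limma adjusted p = 1.59e-08), a 4.00-fold change with no overlap between stages. Hormone genes had a median difference of 0.06 and all probes one of -0.09. Of 4 delta cell markers other than hormones 0 were called between these stages, with list means of 8.60 to 9.18 at E17.5 against 8.41 to 8.69 per array. All 11 endothelial and 9 of 12 mesenchyme markers were also higher at E17.5, with mesenchyme list means of 12.00 to 12.53 against 9.97 to 10.91 per array, and their part in the Sst rise was not tested.

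From E17.5 to P0, 0 of 7 hormone genes were called by limma, against 3.81% of all probes higher and 2.40% lower. At an unadjusted p under 0.05 there was 1 gene, Ghrl, and the methods' t-test called 0. Ghrl read 12.43, 13.64 and 13.36 at E17.5 and 11.31, 11.54 and 11.95 at P0. The stages did not overlap, and the difference was -1.54 (SE 0.61, limma adjusted p = 0.0854). With the spread taken from these 6 arrays alone limma called Ghrl lower. Hormone genes had a median difference of -0.18 and all probes one of -0.00. Acinar markers rose beside it, 8 of 12 being higher at P0, with list means of 11.76 to 12.23 against 7.50 to 10.12 per array, and their part in the Ghrl values was not tested.

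After birth Ghrl fell. From P0 to P15, 1 of 7 genes was called lower and 0 higher, against 14.5% of all probes lower and 11.0% higher. Ghrl read 9.29, 7.71, 7.72 and 8.21 at P15 and fell by 3.37 (SE 0.57, limma adjusted p = 5.93e-06), a 10.3-fold change. P15 replicate 1, the highest for Ghrl, also had the highest acinar list mean of its group, 12.84 against 10.16 to 10.75. The same array was the highest of its group for Sst (14.19) and for the mean of the delta cell markers (9.53). The part of other cells in its Ghrl value was not tested. Ppy, by contrast, was at 13.90, 13.83, 13.64 and 14.03 at P15 against 13.29, 12.77 and 12.89 at P0, a difference of 0.87 that was not called. With the spread taken from the compared arrays alone, limma gave Ppy an adjusted p of 0.00694, still under 2-fold. The median difference over the 7 genes was 0.33, and over all probes 0.12. All 11 endothelial, all 12 mesenchyme and 14 of 17 macrophage markers were lower at P15, with endothelial list means of 5.32 to 6.80 against 10.70 to 11.03 per array. Their part in the Ghrl decrease was not tested.

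From P15 to 8-12wk, 0 of 7 genes were called by limma, against 6.23% of all probes higher and 1.58% lower. At an unadjusted p under 0.05 there was 1 gene, Sst, and the methods' t-test called 0. Sst read 14.19, 13.76, 13.12 and 13.85 at P15 and 14.43, 14.15, 14.18 and 14.11 in adults, a difference of 0.49 (SE 0.21, limma adjusted p = 0.114). Of 4 delta cell markers 1 was higher in adults, and their list means at P15 were 9.53, 8.63, 7.85 and 8.06, highest and lowest on the same arrays as Sst, against 8.80 to 9.04 in adults. Ghrl read 7.37, 7.11, 7.29 and 7.20 in adult beta cells, below every P15 array, at a difference of -0.99 (SE 0.53, limma adjusted p = 0.216). Over the 7 genes the median difference was -0.02, and over all probes -0.08. Of 17 macrophage markers 16 and of 12 mesenchyme markers 7 were higher in adults, with macrophage list means of 10.94 to 11.78 against 6.81 to 9.23 per array, and their part was not tested.

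Alpha cells were then compared with beta cells of the same age. At P0, 0 of 7 hormone genes were called by limma, against 8.00% of all probes higher in alpha cells and 11.8% lower. At an unadjusted p under 0.05 there was 1 gene, Sst, and the methods' t-test called 1 gene, Ghrl. Sst read 14.11, 14.12, 14.10 and 13.94 in P0 alpha cells against 13.44, 13.25 and 13.35 in P0 beta cells, a difference of 0.72 (SE 0.23, limma adjusted p = 0.00905) that was under 2-fold. Ghrl read 12.56, 12.96, 12.85 and 12.11 in P0 alpha cells, above every P0 beta cell array, at a difference of 1.02 (SE 0.57, limma adjusted p = 0.146). Mboat4 was called higher in the alpha cells, by 2.21 (limma adjusted p = 2.85e-05). Ppy (0.74), Gcg (0.53) and Pyy (0.39) were not called. Over the 7 genes the median difference was 0.53, and over all probes -0.01. Of 4 delta cell markers 0 were called, but their list means did not overlap, at 9.18 to 9.28 in alpha and 8.66 to 8.74 in beta cells per array. Their part in the Sst difference was not tested. Macrophage (15 of 17), mesenchyme (8 of 12) and endothelial markers (7 of 11) were lower in the alpha cells, with macrophage list means of 7.23 to 8.19 against 9.69 to 10.08 per array, and their part was not tested. Ins2 in P0 alpha cells read 14.50, 14.30, 14.45 and 14.58, overlapping the P0 beta cells, so the 2 sorts are not separated by this probe. The study states that RNA as abundant as that of insulin and glucagon can saturate array probes. It therefore also measured both by quantitative PCR in sorted adult alpha and beta cells.

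In adults the differences were under 2-fold apart from that of Ghrl, and 0 of 7 were called by limma, against 6.22% of all probes higher in alpha cells and 11.0% lower. At an unadjusted p under 0.05 there were 3 genes, Ins2, Sst and Ghrl, and the methods' t-test called 0. Ppy read 14.66, 14.71, 14.56, 14.60 and 14.58 in adult alpha cells against 14.01, 13.77, 13.80 and 13.74 in adult beta cells, a difference of 0.79 (SE 0.45, limma adjusted p = 0.154). Pyy read 14.71, 14.68, 14.73, 14.77 and 14.82 against 14.25, 14.19, 14.15 and 14.18, a difference of 0.55 (SE 0.45, limma adjusted p = 0.340). For both genes all 5 alpha cell arrays lay above all 4 beta cell arrays.

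Ins2 read 14.21, 13.98, 13.99, 13.86 and 13.53 in adult alpha cells and 14.61, 14.69, 14.62 and 14.68 in adult beta cells, a difference of -0.74 for a gene tied to the sort. Gcg, likewise tied to the sort, differed by 0.39. The fit of all arrays takes its spread also from populations in which these genes are dim and variable. With the spread taken from the 9 adult arrays, limma gave adjusted p under 0.05 for 6 of 7 genes, including Ppy (0.000948), Pyy (0.00501) and Ins2 (0.00563), with none of the 6 reaching 2-fold, and at P0 for 5 of 7. Hormone genes had a median difference of 0.39 and all probes one of 0.03. Pcsk1, the convertase that cleaves proinsulin, was lower in adult alpha cells by 3.82, and all 17 macrophage and 10 of 12 acinar markers were lower in them, with macrophage list means of 5.62 to 6.23 against 10.94 to 11.78 per array. Their part was not tested.

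Adult alpha cells were split in their Ghrl signal. The 5 arrays read 10.39, 10.02, 6.85, 6.78 and 7.41, with replicates 1 and 2 high and the others at 6.78 to 7.41, beside 7.11 to 7.37 in adult beta cells. Acinar markers split the same arrays, with list means of 11.70 and 11.93 against 7.57, 7.69 and 8.44. Adult beta cells had acinar list means of 12.05 to 12.80. The part of acinar material in the Ghrl split was not tested. The Ghrl difference between adult alpha and beta cells, 1.05 (SE 0.50, limma adjusted p = 0.0873), changed sign to -0.23 with arrays 3 to 5 only.

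**Figure D3:**
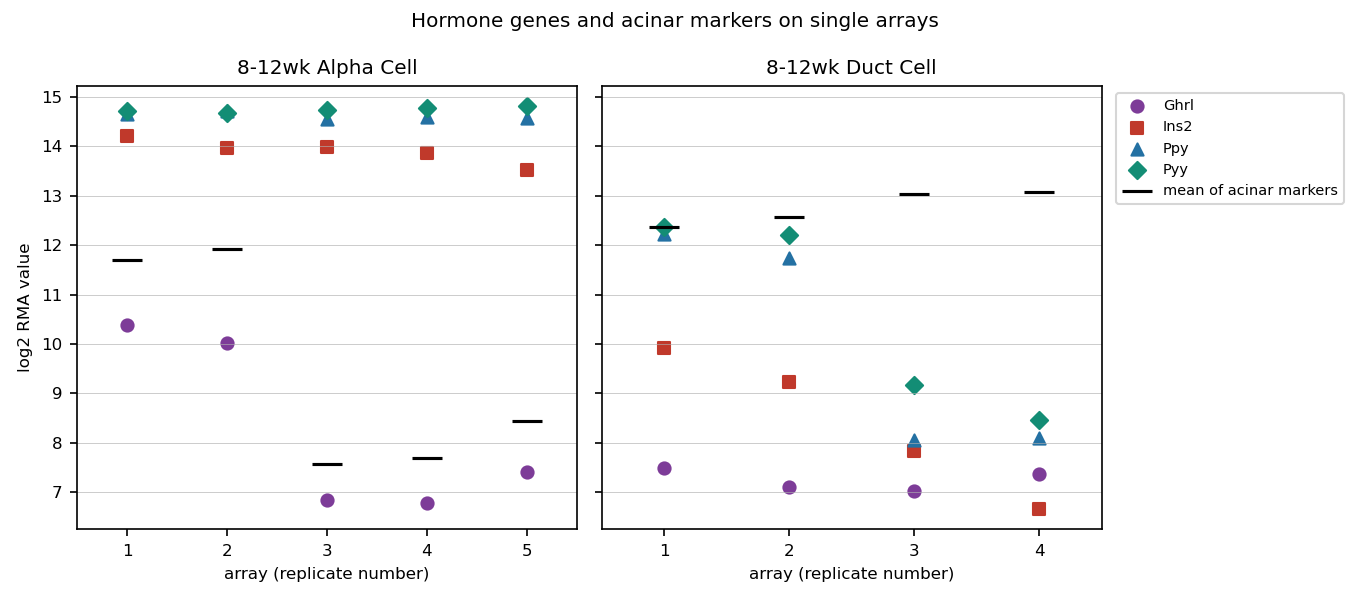
Log2 RMA values of Ghrl, Ins2, Ppy and Pyy (symbols) and the mean of 12 acinar markers (black dashes) on each adult alpha cell array (left) and each duct cell array (right), with the replicate number on the horizontal axis. Ghrl and the acinar markers were high on alpha cell arrays 1 and 2, and Ppy, Pyy and Ins2 were high on duct cell arrays 1 and 2.

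Between P0 and adult alpha cells 1 of 7 genes was called lower and 0 higher, against 13.1% of all probes lower and 7.71% higher. Ghrl fell by 4.33 (SE 0.50, limma adjusted p = 2.88e-09), a 20.1-fold change, and by 5.61 with adult arrays 3 to 5 only, and every adult array lay below the 4 newborn arrays. Mboat4 fell with it, by 2.06 (limma adjusted p = 8.14e-06). Ppy was 13.54, 13.87, 13.83 and 13.64 in P0 alpha cells, below every adult array, at a difference of 0.90 (SE 0.45, limma adjusted p = 0.0911). With the spread taken from the compared arrays alone, limma gave Ppy an adjusted p of 0.000534, still under 2-fold. The median difference over the 7 genes was -0.29, and over all probes 0.04. All 11 endothelial and all 12 mesenchyme markers and 12 of 17 macrophage markers were lower in the adult cells, and their part was not tested.

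The interaction asked whether alpha and beta cells changed differently between P0 and 8-12wk. It shares its arrays with the preceding alpha and beta cell comparisons. The change was called lower in alpha than in beta cells for 1 of 7 genes and higher for 0, against 10.9% of all probes lower and 9.78% higher. This gene was Sst, whose mean changed by -0.36 in alpha cells and by 0.87 in beta cells, a difference of -1.23 (SE 0.30, limma adjusted p = 0.00157). Adult alpha cell arrays read 14.03, 13.71, 13.66, 13.83 and 13.31 for Sst. Ins2 changed by -0.54 in alpha and 0.36 in beta cells, and Iapp by -0.29 and 0.52. Their interactions of -0.91 and -0.81 were not called. With the spread taken from the compared arrays alone, limma gave adjusted p of 0.00326 for Ins2 and 0.00999 for Iapp, both under 2-fold. Ghrl changed by -4.33 in alpha and -4.36 in beta cells, and the interaction was 0.03 (SE 0.76, limma adjusted p = 0.983). The median interaction over the 7 genes was -0.14, and over all probes 0.02. All 17 macrophage markers, 7 of 8 beta cell markers and 2 of 4 delta cell markers also had a lower change in alpha cells, and Hhex, a transcription factor known from delta cells, had an interaction of -3.17. The part of other cells in the Sst interaction was not tested.

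**Figure D4:**
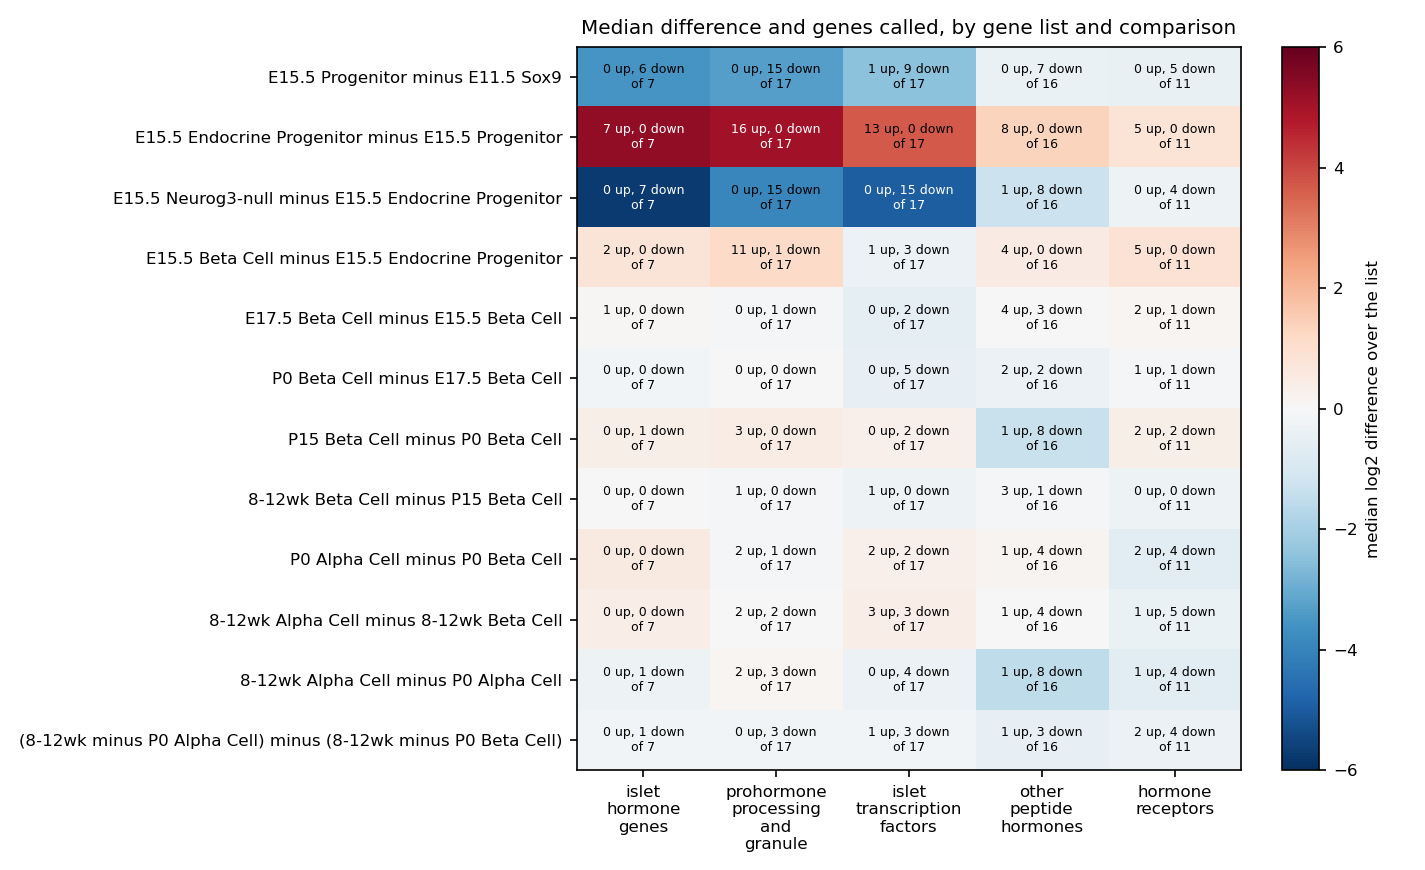
Colour gives the median log2 difference over the tested genes of each list in each comparison, and the text in each cell how many genes were called higher (up) or lower (down) of those tested. In each of the first 3 comparisons, of progenitors, endocrine progenitors and Neurog3-null cells, the medians of hormone genes, granule genes and islet transcription factors had the same sign.

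Hormone receptors and other peptide hormones also held called genes in the later comparisons. Glp1r, the receptor for the incretin cut from proglucagon, rose by 2.63 from P0 to P15 beta cells and was lower by 4.64 in adult alpha than adult beta cells. Sstr2, a somatostatin receptor, was higher in alpha than beta cells, by 1.91 at P0 and 2.94 in adults. Gcgr was lower in adult alpha cells, at a difference of -2.87. Of 11 receptors tested, 5 were lower and 1 higher in adult alpha than adult beta cells, against 11.0% and 6.22% of all probes. Of 16 other peptide hormone genes, 8 were lower and 1 higher from P0 to P15 in beta cells, against 14.5% and 11.0% of all probes, including Penk, the enkephalin precursor (-5.59). From P0 to 8-12wk in alpha cells 8 were also lower and 1 higher, against 13.1% and 7.71% of all probes, including Npy (-4.44). Ucn3, a late marker of beta cells, was lower in adult alpha cells by 4.58.

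Duct and acinar cells were the non-endocrine background and were in none of the 12 comparisons, though their arrays add to the spread in the fit. Macrophage list means were 11.01 to 12.25 on the Duct arrays, beside 10.94 to 11.78 in adult beta cells. Endothelial list means were 8.44 to 9.59 on the E15.5 Acinar arrays, against 4.82 to 5.32 in E15.5 progenitors. The part of other cells in the hormone values of these 2 populations was not tested. In 8-12wk Duct cells Ppy read 12.23, 11.74, 8.05 and 8.09, Pyy 12.38, 12.20, 9.17 and 8.47 and Ins2 9.91, 9.23, 7.84 and 6.66. Replicates 1 and 2 were thus high for all 3 genes. Gcg on the same arrays read 5.03, 5.60, 5.73 and 4.53, and Ghrl 7.48, 7.11, 7.03 and 7.38, without that split. Acinar list means were 12.37 and 12.57 on replicates 1 and 2 and 13.04 and 13.08 on the others. In E15.5 Acinar cells Gcg read 7.30, 9.04 and 3.91, and Ins2 6.72, 6.38 and 8.56, so the 3 arrays differed widely, and replicate 3 was the lowest for Gcg and the highest for Ins2.

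Genes whose 13 population means followed each hormone gene most closely were taken from 14483 genes, as a description over means that share the same arrays. For Gcg these were Isl1 (Pearson r = 0.994), a LIM homeodomain factor, and Neurod1 (r = 0.990), then Lrp11, Vat1l and Cadps. For Iapp they were Gng4 (r = 0.994), Scg3, Chgb, Sphkap and Scg5, and for Pyy Chgb (r = 0.986), Iapp, Scg5, Resp18 and Sphkap. For Ins2 they were Scg2 (r = 0.990), Slc30a8, Kcnmb2, Slc16a9 and Syn2. Sst was nearest to Ctso (r = 0.958), Ins2, Fam20a, Kl and 1500011B03Rik, and Ppy to H2-Q2 (r = 0.980), Dnaja4, Lrrc73, A230051N06Rik and Resp18. Ghrl was nearest to Ppp1r14c (r = 0.942), Peg10 (r = 0.937), Cyp4b1, Slc15a1 and Miat.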

How the data were processed

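Sorted cells were profiled on Affymetrix whole-genome mouse arrays after NuGen amplification. The authors normalized the 48 arrays together by RMA in R 2.11.1, per the submitters' processing notes, and deposited log2 values for 45101 probes. Populations came from the labels, and the study describes the arrays of a population as biological replicates, each from pooled animals. Of the probes 34945 named 1 gene, 932 several and 9160 none, and 64 were array controls. Probes above 100 on the linear scale in at least 1 array, without array controls, were tested with limma 3.58.1 (R 4.3.3) in a fit of all 48 arrays, with Benjamini-Hochberg adjustment and a 2-fold minimum, which the number of arrays limits in precision. The script was tested on simulated data. Alternatives were other filters, a second quantile normalization, fits on the compared arrays, the methods' t-test, no fold minimum, a replicate block, each array left out and the mean of all probes. The hormone genes and the gene lists were chosen with earlier results of these data known. Other genes were named by a rule: up to 4 called genes of each list with the largest differences, and the 5 genes most like each hormone gene. Replicate numbers met the criterion for pairing only for E15.5 Progenitor against E11.5 Sox9, where deviations of same-numbered arrays correlated at 0.106 to 0.148. Neither Ins1 expression nor a scan batch was analysed here.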

Additional observations from a re-analysis of the deposited data

Results flagged for a closer look

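Sst differed between alpha and beta cells in its change from P0 to 8-12wk by -1.23 (SE 0.30, limma adjusted p = 0.00157), being higher in all 4 adult than in all 3 P0 beta cell arrays, while adult and P0 alpha cell arrays overlapped. Among the 56 combinations of gene and population with at least 4 arrays, 2 held an array whose gap to its neighbour was large for the range of its group, where chance gives about 1 in 20. These were Ins2 in P15 beta cell replicate 1, which read 14.41 against 14.67 for the nearest array, and Sst in P0 alpha cell replicate 4, which read 13.94 against 14.10. The gaps were 0.25 and 0.16 log2 units.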

How the results depend on the processing

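Counts of hormone genes called kept within 1.5 times of those reported in all but the following settings. With limma on the compared arrays the count was 1 for P0 against E17.5 beta cells (Ghrl, -1.54) and 1 for P0 alpha against P0 beta cells (Ghrl, 1.02), where the methods' t-test also gave 1. Without a fold minimum it was 1 for P0 alpha against beta cells (Sst, 0.72) and 1 for adult alpha against beta cells (Sst, -0.51). Leaving out single arrays gave 0 to 1 in that adult comparison, since Ghrl was called without alpha cell replicate 3, 4 or 5 (1.41, 1.42 and 1.27), and its difference ranged from 0.52 to 1.42. With arrays 3 to 5 only, an alternative chosen after seeing the data, this difference was reversed, at -0.23.

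With the replicate number as a block the count was 1 for P0 alpha against beta cells (Ghrl, 1.19), Ghrl was called lower in E15.5 beta cells than endocrine progenitors (-1.13), and 5 probes were called for P0 against E17.5 beta cells. The block changed no other call of a hormone gene. Only E15.5 progenitors against E11.5 Sox9 cells met the criterion for pairing, and there 4 of 7 arrays correlated best with their own number. These cells came from different stages and reporter lines, so the shared number is not known to pair them. Elsewhere the samples share only a number.

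Over all probes, the count without a fold minimum, in the order of the report, was 8026, 11551, 17738, 7043, 7272, 4406, 16459, 5385, 14533, 14231, 17133 and 11129. The t-test called 1832 probes for E17.5 against E15.5, 4 for P0 against E17.5 and 1395 for 8-12wk against P15 beta cells. For P0 against E17.5, where 1991 were called, limma on the compared arrays called 1228 and leaving out single arrays gave 1216 to 2412. Of 91 population levels 85 moved by less than 1 SD on a second quantile normalization, by 0.13 at most. The planned difference between Ins1 and Ins2 was not run, since Ins1 had no value here. The cause of these changes was not tested, and signal near the top of the scale limits all differences among bright populations.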
